A study of Mus musculus with 4 samples.

Results

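The BCL2 family sets whether a stressed cell lives or dies by controlling the outer membrane of the mitochondrion. The 10 members followed here were chosen by gene symbol, out of the 27514 genes listed in all libraries: the survival members Bcl2, Bcl2l1 (BCL-XL) and Mcl1, the effectors Bax and Bak1, and the BH3-only members Bbc3 (PUMA), Pmaip1 (NOXA), Bcl2l11 (BIM), Bad and Bid. Their levels were taken per library in all cells that passed the filter and in Gfra1+, Sox3+ and Kit+ cells, and were compared between busulfan (BU) and control (CTRL) libraries.

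Survival members bind and hold the effectors and the BH3-only proteins. BH3-only proteins are made or activated upon DNA damage, loss of growth factors or other stress, and they either neutralise the survival members or act on the effectors directly. Once free, BAX and BAK1 form pores in the mitochondrial outer membrane, cytochrome c leaves and caspases are activated through APAF1. In the testis, BCL2 family members are known for setting how many germ cells survive, and p53 is known to switch on Bbc3, Pmaip1 and Bax after DNA damage.

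The study asked how the undifferentiated spermatogonia (Aundiff) that outlive an alkylating drug differ from those of undisturbed testis. All mice were adult (6 to 8 weeks) wild-type C57BL/6J animals that were left untreated (CTRL) or received a single 10 mg/kg dose of busulfan and were taken at day 10 (BU). Testis cells were sorted as positive for E-cadherin and CD49f and negative for surface c-KIT, and a library holds the pooled cells of 3 mice, with 1 library per condition in experiment 1 (CTRL 1, BU 1) and in experiment 2 (CTRL 2, BU 2). Expression was measured by droplet single-cell RNA sequencing of 3′ ends, and each unique molecular identifier (UMI) counts 1 RNA molecule.

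The libraries held 1859 to 3261 cells and 21136369 to 53579969 UMIs, and 1120 to 3101 cells per library had over 1000 genes and under 20% mitochondrial UMIs. Median UMIs per kept cell were 8066 and 9857.5 in CTRL 1 and BU 1 against 30931 and 34176.5 in CTRL 2 and BU 2, whose kit version also differs according to the labels. A cell was called Gfra1+ (enriched for stem cells), Sox3+ (enriched for progenitors) or Kit+ (entering differentiation) where 1 + 100000 times the fraction of its UMIs from that gene had a natural log above 2. With that rule 1 UMI made a cell positive in 96.9% (CTRL 1) and 90.1% (BU 1) of kept cells, but in only 17.0% (CTRL 2) and 13.8% (BU 2), so the classes rest on different numbers of UMIs in the 2 experiments, and the share of positive cells that comes from free RNA was not estimated. The Gfra1+ class held 585 (CTRL 1), 214 (CTRL 2), 865 (BU 1) and 528 (BU 2) cells, and the Sox3+ class held 1470, 646, 473 and 264 cells in the same order. The sort removed cells with c-KIT protein at the surface, so Kit+ here means Kit RNA, and these cells numbered 36 and 37 in CTRL 1 and CTRL 2 against 322 and 156 in BU 1 and BU 2. Markers of germ cells (Ddx4, Dazl, Zbtb16 and Sall4) summed to 1370 to 2201 CPM (counts scaled to 1000000 UMIs of the same cells) in all passing cells of the 4 libraries. CTRL 2 and BU 2 shared 677 cell barcodes (33.5% and 36.4% of their cells), against 11 between CTRL 1 and BU 1 and at most 1 in any other pair, so the levels and calls of members that changed without the cells that carry a shared barcode are given that way too. The mitotic split and the sums by role were not computed without them. Among kept cells, 225 of CTRL 2 (20.1%) and 523 of BU 2 (41.4%) carried one. Kit+ cells of CTRL 2 stood apart in another way: the Leydig cell markers Insl3 and Cyp11a1 were at 1595 and 898 CPM there, against 0 and at most 0.117 in Kit+ cells of the other libraries. Spermatid markers (Prm1, Prm2, Tnp1, Tnp2 and Spem1) summed to 7530 CPM there, against 324 to 760 in those of the other libraries. Over all passing cells they summed to 2792 (CTRL 1), 16969 (CTRL 2), 995 (BU 1) and 8633 (BU 2) CPM. Cells with over 1% spermatid UMIs were 2.03%, 10.1%, 0.647% and 6.57% of kept cells in the same order. In Gfra1+ cells, Sertoli markers (Sox9, Wt1, Cldn11, Rhox5 and Aldh1a1) summed to 31.7, 89.3, 24.8 and 80.6 CPM in that order. Immune markers (Cd74, Lyz2, Adgre1, C1qa and Ptprc) summed to 3.15, 74.6, 8.59 and 57.9 there. Without the cells that held somatic or spermatid markers, the Sertoli sums were 16.8, 9.93, 13.0 and 9.16. The immune sums were then 0.215, 0.523, 1.53 and 1.17.

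Across all passing cells the members spanned a wide range in CPM, a scale that needs no division by gene length because each molecule is counted once at its 3′ end. Bax was the highest member in all 4 libraries, at 389 (CTRL 1), 244 (CTRL 2), 458 (BU 1) and 325 (BU 2) CPM, and it made up 45.7% to 56.4% of the summed level of the members. Bak1, the other effector, was at 0.566, 0.912, 0.0953 and 0.955 CPM in the same order, which is 15, 35, 2 and 50 UMIs. Bax thus held 99.6% or more of the effector RNA in every library. Bak1 overlaps Ggnbp1 on the opposite strand, and Bax overlaps Gm45808 on the same strand. The effect of such overlaps on the counts of members was not tested.

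Among survival members, Mcl1 and Bcl2l1 carried nearly all of the RNA. Mcl1, whose protein is short-lived, was at 67.4 (CTRL 1), 110 (CTRL 2), 73.4 (BU 1) and 119 (BU 2) CPM, and Bcl2l1 was at 60.2, 50.7, 51.6 and 42.3. Bcl2, the founding member, was at only 1.47, 1.64, 3.34 and 2.69, or 1.01% to 2.60% of the survival RNA. Its gene overlaps Mir3473f and Gm37053 on the same strand. Mcl1 lay above Bcl2l1 in every library, but its spread between the experiments was wide, and in experiment 1 the levels of Mcl1 and Bcl2l1 lay close together.

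Of the BH3-only members, Bad and Bid lay between 25.0 and 57.4 CPM in all passing cells of the 4 libraries and Bcl2l11 between 25.2 and 39.4, with ranges that overlapped. Bbc3 was the lowest of the 5, at 2.83 to 9.70. Pmaip1 was the member whose place in the order moved: it lay below Bad in both CTRL libraries, but behind Bax alone in BU 1 and behind Bax and Mcl1 in BU 2. Pmaip1 made up 22.9% and 20.6% of the BH3-only RNA in CTRL 1 and CTRL 2 against 52.5% and 44.7% in BU 1 and BU 2.

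**Figure D1:**
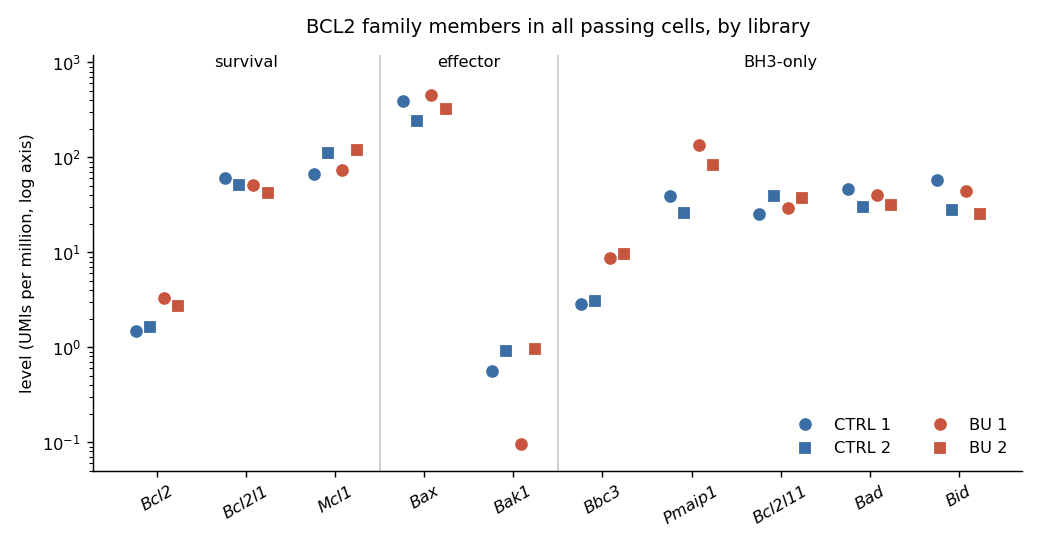
Level of each member in all passing cells of each library, in CPM on a log axis, with CTRL in blue, BU in red, circles for experiment 1 and squares for experiment 2. Pmaip1 and Bbc3 lie higher in both BU libraries than in both CTRL libraries, at 83.8 to 135 against 26.0 to 39.2 and at 8.67 to 9.70 against 2.83 to 3.05, while Mcl1, Bid and Bax separate the experiments more than the treatments.

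For 5 members the level in all passing cells differed more between experiments than between BU and CTRL. Mcl1 was 1.63 and 1.62 times as high in experiment 2 as in experiment 1 in CTRL and in BU, and Bid was 0.485 and 0.575 times as high. Bax (0.628 and 0.709), Bad (0.653 and 0.778) and Bcl2l11 (1.55 and 1.28) also differed between experiments. The BU over CTRL ratios of the 5 members within an experiment ran from 0.766 to 1.33. In CTRL, however, Bcl2l11 was lower in experiment 2 than in experiment 1 in Gfra1+ and in Sox3+ cells, with levels given below. The mix of cells differed between experiments too, and its part in these levels was not tested. Levels were therefore compared within experiments, and BU was tested against CTRL with edgeR's quasi-likelihood test both with condition alone and with the experiment as a replicate block. With condition alone the test called 0 genes (0%) in each of the 4 sets of cells, 0 members among them, although 926 (all passing), 583 (Gfra1+), 2028 (Sox3+) and 909 (Kit+) genes had an unadjusted p under 0.05, and DESeq2 called 119, 15, 328 and 46. With the block, 258 of 17354 genes (1.49%) were called in all passing cells, 9 of 13632 (0.066%) in Gfra1+ cells, 822 of 14445 (5.69%) in Sox3+ cells and 105 of 11030 (0.952%) in Kit+ cells. The members called with the block were Pmaip1 and Bbc3 in all passing cells (2 of 10 tested), the same 2 in Sox3+ cells (2 of 9 tested), Pmaip1 alone in Kit+ cells (1 of 8 tested) and none in Gfra1+ cells (0 of 9, where 2, Pmaip1 and Bbc3, had an unadjusted p under 0.05 and DESeq2, run without the block, called 0). All the calls were rises. Bak1 was too low to test in the 3 classes, and so was Bcl2 in Kit+ cells.

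Pmaip1 encodes NOXA, a BH3-only protein that binds chiefly MCL1. In all passing cells it was at 39.2 and 26.0 CPM in CTRL 1 and CTRL 2 against 135 and 83.8 in BU 1 and BU 2. The lowest BU library lay above the highest CTRL library, and the 2 experiments gave nearly the same ratio: BU was 3.45 times CTRL in experiment 1 (exact 95% interval 3.21 to 3.71) and 3.22 times in experiment 2 (3.01 to 3.46), intervals that cover counting error only. The fitted log2 fold change was 1.77 (SE 0.21, adjusted p = 0.0289) with the experiment as a block and 1.77 (SE 0.43, adjusted p = 0.869) without it. In pooled sums, more RNA per cell and a shift in the kinds of cells cannot be told apart, so the classes were looked at one by one. These classes overlap, because a cell positive for more than 1 of Gfra1, Sox3 and Kit counts in each. Of the Sox3+ cells, 1851 of 2116 in CTRL and 373 of 737 in BU were positive for Sox3 alone. Of the Kit+ cells, 25 of 73 in CTRL and 205 of 478 in BU were positive for Kit alone. A shift in the kinds of cells can thus remain within a class.

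In Gfra1+ cells, where its level was highest, Pmaip1 was at 75.7 (CTRL 1), 63.7 (CTRL 2), 199 (BU 1) and 132 (BU 2) CPM, a mean of 69.7 ± 8.47 against 165 ± 46.9 (SD, n = 2 libraries each). In Sox3+ cells it was at 22.9, 20.8, 61.1 and 47.9, a mean of 21.8 ± 1.5 against 54.5 ± 9.33. In Kit+ cells it was at 6.05, 6.22, 47.0 and 43.5, which rests on 2, 7, 157 and 372 UMIs. CTRL and BU libraries did not overlap in any of the 3 classes, which share cells. The share of all genes whose groups do not overlap was not computed, for Pmaip1 or for the other members. In these overlapping classes the level fell in the order Gfra1+, Sox3+, Kit+ in each library. In cells positive for 1 gene only, edgeR did not call Pmaip1 between Kit+ and Sox3+ cells (log2 fold change -0.21, SE 0.24, adjusted p = 0.569). The fitted log2 fold change with the block was 1.32 (SE 0.21, adjusted p = 0.0583) in Gfra1+, 1.27 (SE 0.19, adjusted p = 0.0312) in Sox3+ and 2.81 (SE 0.53, adjusted p = 0.0289) in Kit+ cells. Without the block the adjusted p values were 1, 0.199 and 0.46, and DESeq2, also without the block, gave 0.155, 0.0182 and 0.0604. In cells positive for Sox3 alone, edgeR without the block gave a log2 fold change of 1.06 (adjusted p = 0.457). In cells positive for Kit alone it gave 2.23 (adjusted p = 0.376), in place of 2.83 in all Kit+ cells. Pmaip1 lies on chromosome 18 at 66458533-66465565 on the plus strand (GRCm38).

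**Figure D2:**
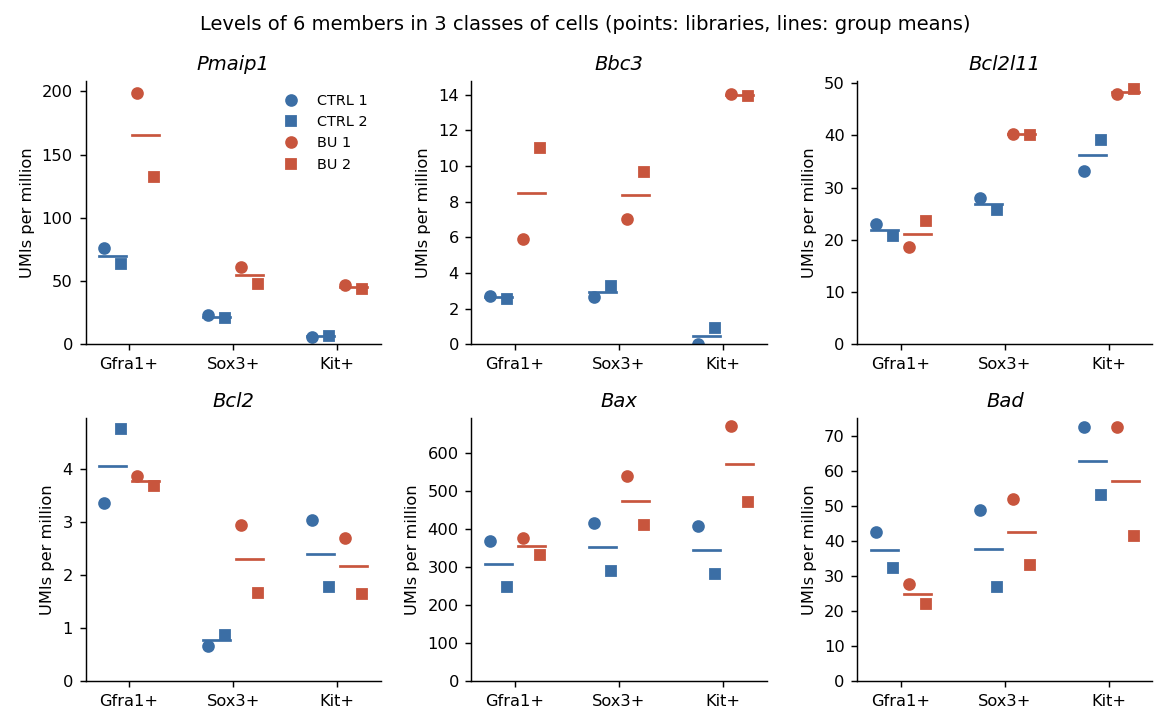
Levels of 6 members in Gfra1+, Sox3+ and Kit+ cells, classes that overlap, in CPM on linear axes that start at 0. Points are libraries and lines are group means. Pmaip1 steps down from Gfra1+ to Kit+ cells in both groups and is higher in BU in each class, Bbc3 is at 2.53 to 3.24 in CTRL Gfra1+ and Sox3+ cells and at 5.91 to 14.1 in BU cells of all classes, and Bcl2l11 steps up from Gfra1+ to Kit+ cells.

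Bbc3 encodes PUMA, a BH3-only protein that binds every survival member. Its gene lies on chromosome 7 at 16308393-16318205 on the plus strand (GRCm38), Bcl2l11 lies on chromosome 2 at 128126038-128162547, also on the plus strand, and both are textbook targets of stress-responsive transcription factors. RefSeq windows of 250 bases before to 50 bases after a start (GRCm38.p6) were found for 9 of the 10 members, 15 windows in all, and were searched on both strands for the FOXO motif GTAAACA and for the p53 core pair, a pair of p53 binding cores with 6 bases between them. The FOXO motif was in 2 of the 15 windows, against 3.65% of all 32851 windows, and the p53 core pair in 1 of the 15, against 7.22%. The 3 windows that held one are shown, since Bbc3 was called with BU and Bcl2l11 between classes. Bad, with 2 windows, held neither motif, and Pmaip1 is the member without a window. The capitals mark the p53 core pair in the first (chr7:16309333-16309632, plus strand, motif at -94 from the start) and the FOXO motif in the second, where it is on the opposite strand (chr7:16310011-16310310, plus strand, -167), and the third (chr2:128125788-128126087, plus strand, -227). The motifs do not overlap one another. A match only says that the letters are there and says nothing of binding.
Bbc3, first window: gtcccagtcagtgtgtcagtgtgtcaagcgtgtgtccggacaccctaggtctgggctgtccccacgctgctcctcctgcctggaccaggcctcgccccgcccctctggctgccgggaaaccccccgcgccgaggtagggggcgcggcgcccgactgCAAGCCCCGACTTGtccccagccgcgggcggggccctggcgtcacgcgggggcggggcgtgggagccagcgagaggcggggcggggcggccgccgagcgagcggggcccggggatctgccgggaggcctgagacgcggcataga
Bbc3, second window: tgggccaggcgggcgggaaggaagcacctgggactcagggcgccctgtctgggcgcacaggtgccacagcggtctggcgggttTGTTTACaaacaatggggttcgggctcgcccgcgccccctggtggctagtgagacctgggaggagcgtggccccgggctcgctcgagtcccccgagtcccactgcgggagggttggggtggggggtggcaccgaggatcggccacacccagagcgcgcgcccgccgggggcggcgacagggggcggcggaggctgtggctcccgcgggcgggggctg
Bcl2l11: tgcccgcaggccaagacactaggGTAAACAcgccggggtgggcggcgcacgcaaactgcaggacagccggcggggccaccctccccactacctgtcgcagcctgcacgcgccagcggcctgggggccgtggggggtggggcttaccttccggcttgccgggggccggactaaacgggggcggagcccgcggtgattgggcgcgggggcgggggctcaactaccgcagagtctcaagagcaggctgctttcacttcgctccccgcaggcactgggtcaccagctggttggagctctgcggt

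The level of Bbc3 was low but followed the same direction as Pmaip1. In all passing cells it was at 2.83 (CTRL 1), 3.05 (CTRL 2), 8.67 (BU 1) and 9.70 (BU 2) CPM, on 75, 117, 182 and 508 UMIs. Both CTRL libraries lay below both BU libraries (2.94 ± 0.155 against 9.19 ± 0.726, SD, n = 2 each). BU was 3.06 times CTRL (2.33 to 4.07) in experiment 1 and 3.18 times (2.60 to 3.92) in experiment 2. The log2 fold change was 1.67 (SE 0.29, adjusted p = 0.0484) with the block and 1.67 (SE 0.36, adjusted p = 0.869) without it. In Gfra1+ cells Bbc3 was at 2.73, 2.53, 5.91 and 11, and in Sox3+ cells at 2.63, 3.24, 7.05 and 9.68. Both classes thus had about the same CTRL level, unlike Pmaip1. With the block the log2 fold change was 1.78 (SE 0.42, adjusted p = 0.135) in Gfra1+ and 1.46 (SE 0.28, adjusted p = 0.0414) in Sox3+ cells, against adjusted p values of 1 and 0.213 without it. In cells positive for Sox3 alone, edgeR without the block gave 1.28 (adjusted p = 0.481).

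Kit+ cells gave the widest gap for Bbc3, with 0 and 1 UMIs in CTRL 1 and CTRL 2 (0 and 0.888 CPM) against 47 and 119 in BU 1 and BU 2 (14.1 and 13.9 CPM). The count of 0 in CTRL 1 came from 36 cells and allows up to 9.07 CPM at a floor of 3 UMIs. The BU 1 level was 1.55 times that floor, a figure that leaves out the counting error of BU 1 and the spread between pools. In experiment 2 the ratio was 15.7, with a counting interval of 2.76 to 625. Pmaip1 had ratios of 7.77 (2.11 to 64.7) and 7.0 (3.37 to 17.5) in Kit+ cells. The fitted log2 fold change of Bbc3 there was 4.28 with the block (SE 1.04, adjusted p = 0.0792), a size that depends on how the fit treats the near-empty CTRL counts. In edgeR without the block it was 4.27 in all Kit+ cells (adjusted p = 0.46). In cells positive for Kit alone it was 2.73 (adjusted p = 0.409). Only 36 and 37 Kit+ cells stood behind the CTRL values, and Kit+ cells of CTRL 2 carried the Leydig and spermatid markers given above. Without the cells that held somatic or spermatid markers, the Leydig markers summed to 1.26 CPM in CTRL 2, Bbc3 had 0 UMIs in both CTRL libraries against 14.1 and 13.1 CPM in BU 1 and BU 2, and Pmaip1 was at 6.05 and 5.05 against 46.3 and 28.6 (block, adjusted p = 0.0613 and 0.0391).

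**Figure D3:**
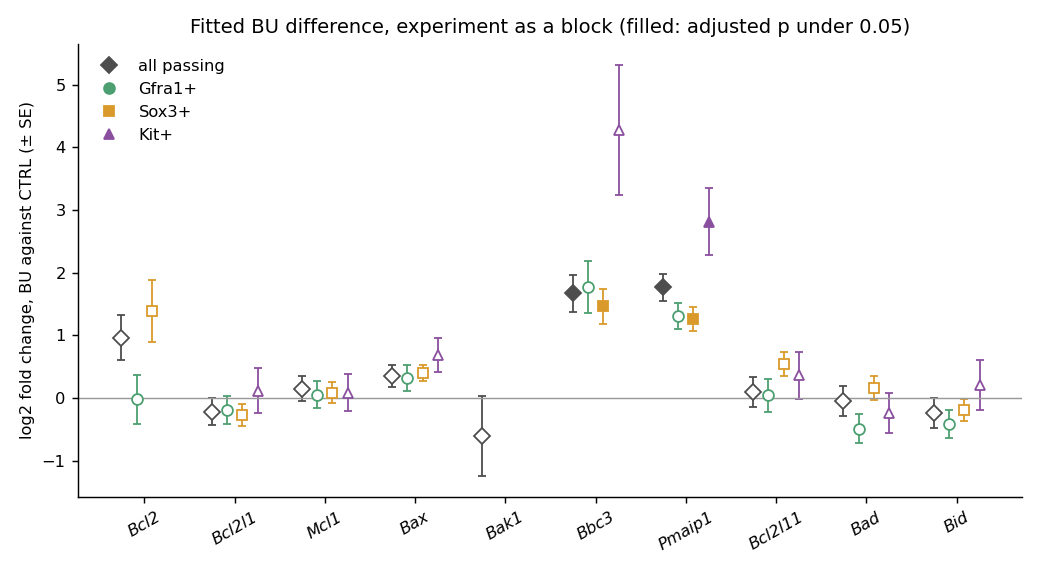
Fitted log2 fold change of BU against CTRL with the experiment as a block, for each member and each set of cells, with SE as bars; filled symbols have an adjusted p under 0.05 over all genes tested (edgeR), and members too low to test have no symbol. Filled are Pmaip1 in all passing (1.77), Sox3+ (1.27) and Kit+ (2.81) cells and Bbc3 in all passing (1.67) and Sox3+ (1.46) cells; the other symbols are open.

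The remaining members were not called in any of the 4 sets of cells with or without the block. The survival members Mcl1 and Bcl2l1 had block log2 fold changes between -0.27 and 0.15 over the 4 sets, with adjusted p of 0.344 or more. Bcl2 was at 0.658 (CTRL 1), 0.870 (CTRL 2), 2.94 (BU 1) and 1.66 (BU 2) CPM in Sox3+ cells, on 9, 22, 15 and 20 UMIs, and its log2 fold change of 1.39 (SE 0.49) had an adjusted p of 0.135. In Gfra1+ cells Bcl2 was at 3.36, 4.75, 3.87 and 3.68, with overlapping groups. Without the shared barcodes its Gfra1+ levels were 3.37, 2.22, 3.88 and 8.42, on 16, 11, 36 and 62 UMIs, so that both BU libraries lay above both CTRL libraries, with a block log2 fold change of 1.09 (adjusted p = 0.771) in place of -0.02 (adjusted p = 0.993). In Sox3+ cells the levels of Bcl2 were then 0.660, 0.894, 2.94 and 0.952, and CTRL 2 and BU 2 lay close together. Bax was not called either, and in Kit+ cells it was at 408, 281, 672 and 470 CPM, 1.65 and 1.68 times as high in BU within experiments 1 and 2, and the lower BU library lay above both CTRL libraries (log2 fold change 0.69, SE 0.28, adjusted p = 0.322). In Gfra1+ cells its levels of 368, 248, 377 and 332 overlapped. Its Kit+ levels on either side of a mitotic split are given below.

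Bcl2l11, which is known to drive death on loss of growth factors, was at 28.1 (CTRL 1), 25.7 (CTRL 2), 40.3 (BU 1) and 40.1 (BU 2) CPM in Sox3+ cells, where the groups did not overlap (log2 fold change 0.54, SE 0.19, adjusted p = 0.133 with the block). In Gfra1+ cells the same member was at 23.1, 20.6, 18.6 and 23.6, with overlap. Its Sox3+ levels on either side of a mitotic split are given below. Bad, a BH3-only protein that growth factor signals hold inactive by phosphorylation, was at 42.6, 32.4, 27.8 and 22.1 in Gfra1+ cells, lower in both BU libraries than in both CTRL libraries (log2 fold change -0.49, SE 0.23, adjusted p = 0.448). Without the shared barcodes Bad was at 42.2, 27.1, 27.8 and 29.5 there, with overlapping groups, BU 2 above CTRL 2 and a block log2 fold change of -0.20 (adjusted p = 0.938). Bid, which caspase-8 cleaves to link death receptors to mitochondria, was at 68.0, 33.4, 43.5 and 25.9 in Gfra1+ cells, and its groups overlapped there (adjusted p = 0.509). Bad overlaps Gpr137 and Bid overlaps Bcl2l13 on opposite strands, and Bid also overlaps Gm44260 on the same strand. Over the members tested, the median log2 fold change with the block was 0.13 in all passing, 0.04 in Gfra1+, 0.39 in Sox3+ and 0.29 in Kit+ cells, beside 0.04, 0.02, 0.03 and 0.01 over all genes tested.

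Without the cells that shared a barcode, Pmaip1 was at 69.1 in CTRL 2 against 122 CPM in BU 2 in Gfra1+ cells, 19.0 against 54.2 in Sox3+ cells and 3.03 against 34.6 in Kit+ cells. Bbc3 was at 2.42 against 7.74, at 3.53 against 8.80 and at 0 against 19.8 in the same classes. Both members thus stayed higher in BU 2 than in CTRL 2 in each class. With the block and without these cells, the log2 fold changes in all passing cells were 1.68 (Pmaip1, adjusted p = 0.278) and 1.42 (Bbc3, adjusted p = 0.291), and 0 of 16240 genes were called there (1928 at an unadjusted p under 0.05; DESeq2 was not run on this choice of cells). In Sox3+ cells the adjusted p values were 0.0715 and 0.166, and in Gfra1+ cells 0.239 and 0.551. In Kit+ cells, by contrast, both were called, with an adjusted p of 0.00222 for Pmaip1 and 0.00848 for Bbc3, on 2 and 1 UMIs of Pmaip1 and 0 of Bbc3 in the CTRL libraries.

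Markers of dividing cells moved with BU as well. The 7 mitotic markers (Mki67, Top2a, Ube2c, Cdc20, Aurka, Aspm and Ccnb1) summed to 607 to 629 CPM in CTRL and 1196 to 1333 in BU over all passing cells, and all 7 were higher in both BU libraries than in both CTRL libraries (4 of 7 in Gfra1+ cells). Each class was therefore split at 586 CPM of their summed level in a cell, a split with 3.2% to 13.9% of the cells of a class within 10% of it. Below it, Pmaip1 in Gfra1+ cells was at 74.6 (CTRL 1), 62.3 (CTRL 2), 176 (BU 1) and 105 (BU 2), and at or above it at 77.3, 66.2, 209 and 144. In Sox3+ cells Pmaip1 was at 20.8, 17.3, 55.7 and 46.8 below and at 27.8, 31.9, 63.2 and 48.3 at or above. The BU libraries were therefore above the CTRL libraries on both sides of the split in both classes. Bbc3 showed the same order on both sides, but on few UMIs in CTRL. In Gfra1+ cells below the split it was at 2.5 and 2.59 (CTRL 1 and CTRL 2) against 7.98 and 8.72 (BU 1 and BU 2). These values rest on 7, 11, 24 and 64 UMIs. At or above the split it was at 3.05 and 2.42 against 4.92 and 12, on 6, 6, 31 and 203 UMIs. Bcl2l11 in Sox3+ cells was at 24.1 and 21.4 (CTRL) against 27.8 and 31.1 (BU) below the split. At or above it, Bcl2l11 was at 37.4 and 39.2 against 45.2 and 43.6. Its BU over CTRL ratios were 1.15 and 1.44 below, and 1.21 and 1.11 at or above. Cells at or above the split were 27.9% and 21.8% of Sox3+ cells in CTRL against 69.3% and 64.0% in BU. Bax in Kit+ cells was at 362 and 222 (CTRL) against 512 and 386 (BU) below the split. At or above it, Bax was at 555 and 335 against 704 and 479, and BU 2 lay below CTRL 1. Its ratios were 1.41 and 1.74 below, and 1.27 and 1.43 at or above. The part of the mitotic mix in the levels of Bcl2l11 and Bax was not tested. In Sox3+ cells the differentiation markers (Kit, Stra8, Dmrtb1 and Sohlh2) also summed higher in BU, at 457 and 353 CPM in BU 1 and BU 2 against 126 and 93.2 in CTRL 1 and CTRL 2, and their part in the results was not tested. The stem cell markers (Gfra1, Etv5, Id4, Nefm, Lhx1, Eomes and Egr2) summed to 87.4 and 99.9 CPM in CTRL Sox3+ cells against 179 and 270 in BU Sox3+ cells, with 6 of 7 higher in both BU libraries. The progenitor markers (Neurog3, Sox3, Rarg, Upp1 and Ddit4) summed to 681 and 554 against 258 and 222 in Sox3+ cells and to 200 and 177 against 51.8 and 58.9 in Gfra1+ cells, with 0 of 5 higher in both BU libraries. Their part in the Pmaip1, Bbc3 and Foxo1 results was not tested either.

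**Figure D4:**
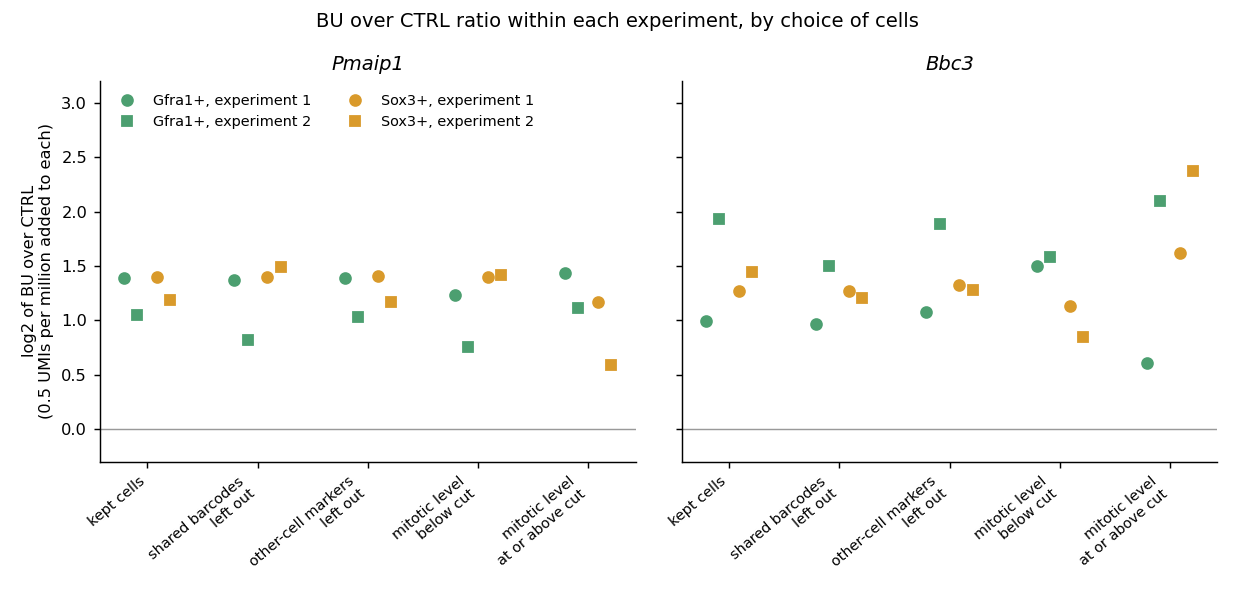
Ratio of BU to CTRL within each experiment for Pmaip1 and Bbc3 in Gfra1+ and Sox3+ cells, on a log2 scale with 0.5 CPM added to each level, for 5 choices of cells; each point is 1 pair of libraries. All points lie above 0, and Kit+ cells are not drawn because their CTRL counts were at most 7 UMIs. On either side of the mitotic split, Bbc3 in CTRL Gfra1+ cells rests on only 6 to 11 UMIs per library.

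How the members differ between classes was tested on cells positive for exactly 1 of Gfra1, Sox3 and Kit, with the library as a block and BU and CTRL together. Of 12213 genes, edgeR called 1663 (13.6%) between Sox3+ and Gfra1+ cells, 2856 (23.4%) between Kit+ and Gfra1+ cells and 1801 (14.7%) between Kit+ and Sox3+ cells. Of the 9 members tested, Pmaip1 and Bcl2 were lower and Bcl2l11 higher in Sox3+ than in Gfra1+ cells, and Pmaip1 was lower and Bcl2l11 and Bad higher in Kit+ than in Gfra1+ cells. None was called between Kit+ and Sox3+ cells, where Bcl2l1, Bcl2l11 and Bad had an unadjusted p under 0.05 and DESeq2 called Bad (adjusted p = 0.0394). The share of members called, 3 of 9 in each of the first 2 contrasts, stood beside backgrounds of 13.6% and 23.4%.

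Pmaip1 in these cells was at 91.7 (CTRL 1), 77.1 (CTRL 2), 205 (BU 1) and 140 (BU 2) CPM in the Gfra1+ class and at 21.0, 17.8, 42.8 and 38.9 in the Sox3+ class. Its Sox3+ level in BU lay below its Gfra1+ level in CTRL. The log2 fold change was -2.03 (SE 0.18, adjusted p = 0.000136) in Sox3+ and -2.24 (SE 0.23, adjusted p = 0.00033) in Kit+ against Gfra1+ cells, and the call held under every alternative run for these 2 contrasts. Bcl2 was at 4.32, 7.08, 3.89 and 4.26 in the Gfra1+ class against 0.585, 0.779, 1.18 and 0.973 in the Sox3+ class, on 3 to 17 UMIs per library in the latter, with no overlap (log2 fold change -2.55, SE 0.43, adjusted p = 0.00282). Without the shared barcodes Bcl2 was at 2.67 in CTRL 2 and 9.72 in BU 2 in the Gfra1+ class, still above every Sox3+ value, and the call held (-2.34, adjusted p = 0.00619). Bcl2 could not be tested once the cells with somatic or spermatid markers were left out. Those cells carried it at 6.57 (CTRL 1), 4.47 (CTRL 2), 29.7 (BU 1) and 6.95 (BU 2) CPM. They held 6, 39, 11 and 82 of its 39, 63, 70 and 141 UMIs in all passing cells, in the same order. Their part in the Bcl2 difference between classes was not tested.

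Bcl2l11 went the other way, at 17.6 (CTRL 1), 19.1 (CTRL 2), 17.6 (BU 1) and 22.0 (BU 2) in the Gfra1+ class, 27.1, 25.6, 41.3 and 34.1 in the Sox3+ class and 22.3, 34.5, 55.2 and 53.7 in the Kit+ class. Every Sox3+ value lay above every Gfra1+ value. The log2 fold change was 0.78 (SE 0.15, adjusted p = 0.00595) in Sox3+ and 1.19 (SE 0.18, adjusted p = 0.00141) in Kit+ against Gfra1+ cells. The Sox3+ call was lost without the library block (adjusted p = 0.103), without BU 1 (0.0992), with classes taken from any UMI (0.789) and after thinning to 5000 UMIs per cell (0.0625), and the Kit+ call without BU 1 (0.0535) and with any UMI (0.0651). Without the shared barcodes both held, at 0.88 (adjusted p = 0.00348) and 1.53 (adjusted p = 0.000664). Cells that held somatic or spermatid markers carried the member too, at 65.7, 83.7, 32.4 and 68.3 CPM, above its level in all 3 classes except in BU 1, and without them the log2 fold changes were 0.78 (adjusted p = 0.000407) and 1.38 (adjusted p = 2.51e-05). Bad was at 42.6, 33.8, 27.3 and 21.0 in the Gfra1+ class and 44.5, 56.7, 74.9 and 36.5 in the Kit+ class (log2 fold change 0.86, SE 0.21, adjusted p = 0.015). That call was lost without the library block (0.156), without shared barcodes (0.114), without BU 1 (0.195), without BU 2 (0.0831) and with any UMI (0.305).

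**Figure D5:**
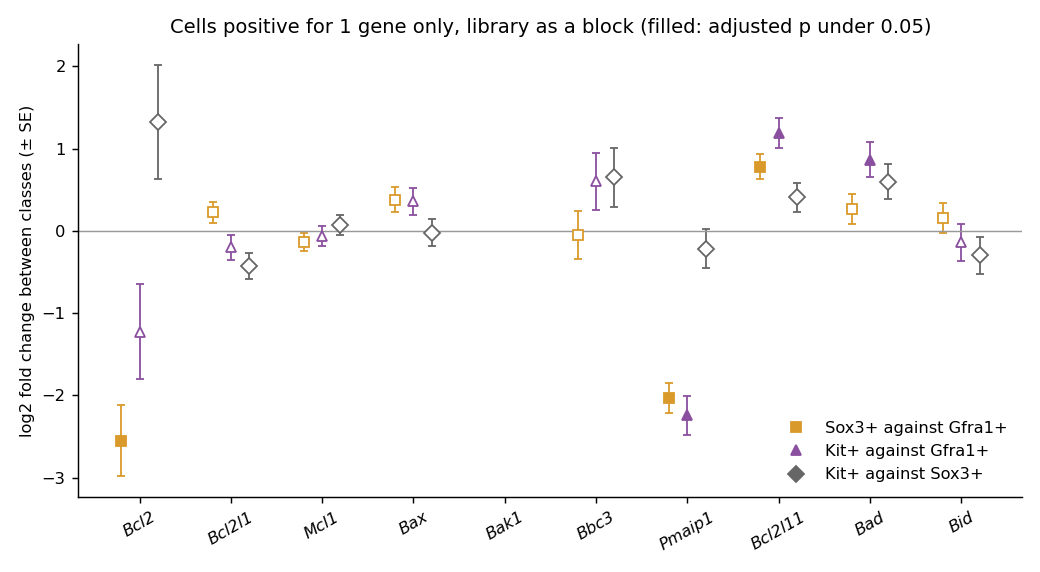
Fitted log2 fold change between classes of cells positive for 1 of Gfra1, Sox3 and Kit only, with the library as a block and SE as bars; filled symbols have an adjusted p under 0.05 over all genes tested (edgeR). Pmaip1 lies near -2 in both contrasts with Gfra1+ cells and Bcl2l11 on the other side of 0, and no symbol of the Kit+ against Sox3+ contrast is filled.

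The Kit+ class of these contrasts was small in CTRL, with 10 cells in CTRL 1 and 15 in CTRL 2, whose median of 8435 UMIs was far below the 30931 of its library. Pmaip1 had 0 and 4 UMIs there, against 55 and 112 in BU 1 and BU 2. With the cells of somatic or spermatid markers left out, Bax also passed in Sox3+ (log2 fold change 0.34, adjusted p = 0.0264) and Kit+ cells (0.56, adjusted p = 0.00307) against Gfra1+ cells, and in the Kit+ against Sox3+ contrast Pmaip1 (-0.55, 0.0337), Bcl2l11 (0.61, 0.02) and Bad (0.77, 0.00861) did. The part of these other cells in the class differences was not tested beyond leaving them out. In the main fits Bax had adjusted p values of 0.141 (Sox3+) and 0.134 (Kit+) against Gfra1+ cells. It also passed after thinning (0.042 and 0.0335) and with cells counted in each class (0.0289 and 0.018). DESeq2 called it for Kit+ (0.0349) but not for Sox3+ cells (0.0815). It did not pass with RLE scaling (0.141 and 0.0772) or any UMI (0.928 and 0.654).

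Whether BU acted differently in the classes was tested by the class by condition term. It called 3 of 12213 genes (0.0246%) for Sox3+ and 446 (3.65%) for Kit+ against Gfra1+ cells, and 0 of 9 members in either (in Kit+ cells Bax and Bid had an unadjusted p under 0.05, in Sox3+ cells none had, and DESeq2 called 0 members). For Pmaip1 the difference in log2 fold change was -0.06 (SE 0.25, adjusted p = 0.989) for Sox3+ and 1.15 (SE 0.83, adjusted p = 0.455) for Kit+, so the larger ratio in Kit+ cells was not shown to differ from that in Gfra1+ cells. For Bax in Kit+ cells it was 0.70 (SE 0.22, adjusted p = 0.0994), with an adjusted p of 0.0443 without CTRL 1. The 446 genes fell to 0 without the cells of somatic or spermatid markers and to 0 without the shared barcodes, at 1275 and 1422 genes with an unadjusted p under 0.05.

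Of 47 other genes of the mitochondrial death pathway (further BCL2-like and BH3-only genes, apoptosome and caspases, inhibitors of apoptosis, death receptors, mitochondrial channels and transcription factors known to act on the family), 36 to 41 were tested per comparison. With condition alone, edgeR called 0 of them for BU against CTRL in each set of cells, with 2 (all passing), 1 (Gfra1+), 5 (Sox3+) and 5 (Kit+) at an unadjusted p under 0.05. With the block it called 3 of 39 in Sox3+ cells, where 5.69% of all genes were called, and 0 in the other sets (10, 5 and 6 at an unadjusted p under 0.05 in all passing, Gfra1+ and Kit+ cells). DESeq2 values were not taken for this list. Birc5 (survivin, an inhibitor of apoptosis that is also part of the mitotic chromosome machinery) was at 76.7 (CTRL 1), 69.7 (CTRL 2), 139 (BU 1) and 156 (BU 2) CPM in Sox3+ cells, with a log2 fold change of 0.97 (SE 0.17, adjusted p = 0.0375). Foxo1, a transcription factor that AKT inhibits, was at 252, 183, 147 and 104, a change of -0.84 (SE 0.15, adjusted p = 0.0372). Apaf1, the scaffold of the apoptosome, lay below the 10 CPM set for naming and is given because its values were seen: 2.56, 6.53, 13.9 and 15.6 (log2 fold change 1.72, SE 0.34, adjusted p = 0.0436). CTRL and BU did not overlap in these 3, which were picked because the block called them, and the share of all genes without overlap was not computed. Their calls are not given without the shared barcodes, a choice of cells in which Pmaip1 and Bbc3 were no longer called in Sox3+ cells. The mitotic markers given above summed to 607 and 606 CPM in CTRL Sox3+ cells against 1237 and 1319 in BU Sox3+ cells, and their part in the result for Birc5 was not tested. Trp53, the gene of p53 itself, had a log2 fold change of 0.41 in Sox3+ cells (adjusted p = 0.177) and Mdm2, a p53 target, one of 0.03 (adjusted p = 0.932). Neither was called, both are given outside the rule for naming, and the part of p53 was not tested.

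Between classes, 6 of 37 of these genes were called in Sox3+ and 9 of 37 in Kit+ against Gfra1+ cells, beside 13.6% and 23.4% of all genes, shares near these backgrounds that say nothing particular of the list. Bok, a BAX-like effector, was higher in Sox3+ (log2 fold change 1.45, adjusted p = 0.00678) and Kit+ cells (2.37, adjusted p = 0.00102), and so was Bnip3, a mitochondrial protein known for mitophagy (1.34, adjusted p = 0.000912, and 1.87, adjusted p = 0.000363). Foxo1 was higher in Sox3+ cells (0.86, adjusted p = 0.00235), and Htra2, which counters inhibitors of apoptosis, in Kit+ cells (1.2, adjusted p = 0.0378). Cflar, which blocks caspase-8, was lower in both (-0.98, adjusted p = 0.0447, and -1.88, adjusted p = 0.00992). E2f1 (-0.60, adjusted p = 0.0443) and Xiap (-0.56, adjusted p = 0.0301) were lower in Sox3+ cells, and Bik, a BH3-only gene (-1.2, adjusted p = 0.0103), and Casp9 (-0.91, adjusted p = 0.00472) in Kit+ cells. Foxo1 (-0.87, adjusted p = 0.00901), Casp9 (-0.93, adjusted p = 0.0103) and Foxo3 (-0.73, adjusted p = 0.0291) were lower in Kit+ than in Sox3+ cells, 3 of 37 beside 14.7% of all genes. The class by condition term called 0 of 37 for Sox3+ in edgeR (3 at an unadjusted p under 0.05) and 2 of 37 for Kit+ cells (3.65% of all genes), Tnfrsf1a (-4.43, adjusted p = 0.0246) and Bcl2l14 (-3.37, adjusted p = 0.0324), which are given because the count is small and were chosen after their values were seen. As given above, the Kit+ term called no gene without the cells of somatic or spermatid markers, or without the shared barcodes.

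Over the 12 sums of 4 libraries and 3 single-positive classes, the levels most like each member were found by Pearson's r of log2(CPM + 1) among 9050 genes of at least 10 CPM. The sums share libraries and depth, so r is a description. Nearest to Pmaip1 were Rpf2 (0.983) and Abr (0.980), nearest to Mcl1 were Cinp (0.985) and Cbwd1 (0.964), and nearest to Bcl2l11 were Lyrm9 (0.960) and Serpine2 (0.959). Bax lay nearest to Uqcrh (0.967) and Snx11 (0.966), Bid to Ccdc12 (0.964) and Suv420h2 (0.960), Bad to Sod2 (0.947), and Bcl2l1 to Trim45 (0.918) and 4930452B06Rik (0.914). Bcl2, Bak1 and Bbc3 lay below the level set for this.

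Summed by role, with Pmaip1 in the BH3-only sum, survival RNA was lower relative to BH3-only RNA in BU than in CTRL within each experiment. The ratio was not computed without Pmaip1, so it is not a result separate from the rise of that gene given above. In Gfra1+ cells Bcl2l11, Bad and Bid, which are also in the sum, were not higher in both BU libraries, as given above. In Gfra1+ cells survival RNA was at 134 (CTRL 1), 183 (CTRL 2), 127 (BU 1) and 166 (BU 2) CPM, and BH3-only RNA at 212, 153, 294 and 215. The survival sum divided by the BH3-only sum was 0.631 and 1.2 in CTRL 1 and CTRL 2 against 0.433 and 0.773 in BU 1 and BU 2, and BU 2 lay above CTRL 1. In Sox3+ cells the ratio was 0.793 and 1.5 against 0.612 and 1.01, and in Kit+ cells 0.760 and 1.29 against 0.589 and 0.938. Pmaip1 made up 35.7% and 41.7% of the BH3-only RNA in CTRL Gfra1+ cells and 67.5% and 61.5% in BU Gfra1+ cells. In Kit+ cells its share was 4% and 4.90% in CTRL and 20.7% and 24.0% in BU. Messenger levels do not show how much protein is made or whether it is active.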

How the data were processed

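The authors deposited, for each library, a table of raw UMI counts per gene and cell, made with Cell Ranger (3.0.2 per the file headers). The submitters' processing notes also name Seurat 3.2 and GRCm39, whereas the study's methods name mm10. Gene positions are from GENCODE M21 on GRCm38. Kit versions differ between experiments in the labels but not in the study's methods.

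Cells with over 1000 genes and under 20% of UMIs from the 13 mitochondrial genes were kept. No doublet caller was run; cells over 2 times the median UMIs were left out as an alternative. UMIs were summed per library and class over the 27514 genes listed in all libraries, and levels are CPM of those sums. Within-experiment ratios had 0.5 CPM added unless an interval is given; exact 95% intervals and the 3-UMI floor cover counting error only. No column belonged to another sample (0).

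Sums were tested in R 4.3.3 with edgeR 4.0.16 (TMM, filterByExpr, quasi-likelihood test, Benjamini-Hochberg adjustment over all genes tested, threshold 0.05). DESeq2 1.42.0 was an alternative. The edgeR steps were also run on simulated counts with planted changes. The spread of those counts was not matched to these data, so that run gives no error rate here. The main BU test had condition alone. Library numbers mark the experiment, and CTRL 1 and BU 1 deviated from their group means together (r = 0.779 over 17354 genes, which with 2 libraries per group holds equally for CTRL 2 and BU 2), so a fit that adds experiment as a replicate block stands next to the main one. In all passing cells the biological coefficient of variation was 0.527 without and 0.223 with the block. Class tests used cells positive for 1 marker and the library as a block. BU tests counted a cell in each class it was positive for, with cells positive for 1 marker only as an alternative. Other alternatives were RLE scaling, no filter on low counts, 10% mitochondrial UMIs, any UMI or a UMI after thinning to 5000 UMIs as the class rule, cells counted in each class, cells with 3 or more somatic markers or over 1% spermatid UMIs left out, each library left out and, chosen after seeing the data, shared barcodes left out and the block with either choice of cells.

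All members are described. Other pathway genes are named where they were among the 3 largest called rises or falls with a mean of at least 10 CPM, apart from the exceptions marked in the text. The 2 genes most like each member are named, except 1 that is not reported here. The members and lists were chosen with earlier results of these data known. Each group has 2 libraries of pooled cells. With condition alone, p-values measure the spread between pools. With the experiment as a block they measure the spread of the BU difference between experiments. In the class tests, with the library as a block, they measure the spread of class differences between libraries. The rest used Python 3.11.15 with pandas 2.3.3, scipy 1.17.1, numpy 2.4.6 and matplotlib 3.10.9.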

Additional observations from a re-analysis of the deposited data

How the results depend on the processing

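Of 1231 values of members under alternatives, 1180 kept their side of the threshold, 40 passed it newly, 11 no longer passed and 0 called values reversed. Among the 1180, 94 uncalled values changed sign. In the main fits only the Sox3+ and Kit+ against Gfra1+ contrasts had called members, so the 11 losses all come from these. Most of the 1180 were uncalled in both fits, and the BU calls of Pmaip1 and Bbc3 are among the 40. Counts of called genes moved far more, and unless a value above shows it the cause was not tested. For BU against CTRL the count of 0 became 119 (DESeq2), 258 (replicate block), 739 (block, without cells of somatic or spermatid markers) and 0 to 96 (leaving out 1 library) in all passing cells. In Gfra1+ cells it became 15 (DESeq2), 50 (no filter on low counts), 9 (replicate block), 1 (block, without shared barcodes), 69 (block, without other cells) and 0 to 25 (leaving out 1 library). In Sox3+ cells the corresponding counts were 328, 363, 822, 39, 881 and 10 to 1331, and in Kit+ cells 46, 564, 105, 489, 73 and 0 to 886. Between Sox3+ and Gfra1+ cells, 1663 became 3339 (without other cells), 417 (no replicate block), 256 (any UMI), 2957 (cells counted in each class) and 683 to 3349 (leaving out 1 library). Between Kit+ and Gfra1+ cells, 2856 became 4716, 907, 211, 4831 and 609 to 5024 in the same order. Between Kit+ and Sox3+ cells, 1801 became 3052 (no filter), 3246 (without other cells), 653 (without shared barcodes), 78 (no replicate block), 0 (any UMI), 749 (a UMI after thinning), 1168 (each class) and 3 to 3028 (leaving out 1 library); 705 were higher and 1096 lower, against 1388 and 1206 by DESeq2. The BU effect in Sox3+ against Gfra1+ cells went from 3 to 5 (DESeq2), 122 (no filter), 46 (without other cells), 0 (no replicate block), 0 (any UMI), 8 (thinning) and 0 to 304 (leaving out 1 library). That in Kit+ cells went from 446 to 1430 (no filter), 0 (without other cells), 26 (without cells over 2 times the median UMIs), 0 (without shared barcodes), 0 (no replicate block), 0 (any UMI), 40 (thinning) and 0 to 2101 (leaving out 1 library); RLE scaling moved the median of all genes in that term from 0.07 to -0.04 (log2). With 2 libraries per group and 0 to 7 UMIs of Bbc3 and Pmaip1 in CTRL Kit+ cells, sizes there are poorly bounded. The highest counts came without CTRL 2 in the 3 class contrasts (3349, 5024 and 3028) and for BU in Sox3+ cells (1331), and without CTRL 1 for BU in Kit+ cells (886) and for both BU effects between classes (304 and 2101). With condition alone in Kit+ cells, where the lone CTRL library is assumed to vary like the BU libraries, Pmaip1 was called without CTRL 1 (log2 fold change 2.95, adjusted p = 0.000899) and without CTRL 2 (2.90, adjusted p = 0.0366), and Bbc3 without CTRL 1 (adjusted p = 0.00701).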
